A study of Mus musculus with 10 samples.

Results

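Imprinted genes are genes of which the copy inherited from the father or the copy inherited from the mother is mainly expressed. A list of 36 mouse imprinted genes was read out of RNA-seq tables of Sertoli cells and testes, and members were found in the tables by their gene symbol. The list was drawn up with earlier results of these data known. Of the 36, 30 were among the 17816 gene symbols of the day 7 table and the same 30 among the 20007 of the adult table. The 6 RNA genes H19, Meg3, Rian, Mirg, Peg13 and Kcnq1ot1 were among the symbols of neither table and were not analysed here. At day 7 after birth, Sertoli cells, the supporting cells of the seminiferous tubules, were sampled in 2 Rnf20 Flox/Flox controls and 2 Amh-Rnf20-/- knockouts. The labels call these controls WT. The adult table held 3 testes labelled WT and 3 labelled as the RNF20 conditional knockout, and the ages of these adults were not given. In the Amh-Rnf20-/- mice, Cre driven by the Amh promoter removes floxed Rnf20 in Sertoli cells, so other testis cells keep the gene, which encodes an E3 ligase for histone H2B. By the study's methods the day 7 cells had been cultured and passaged as adherent cells, whereas the growth field of the labels gives adult tissue for every sample, day 7 included. The day 7 comparison asked what the loss of RNF20 in Sertoli cells changes in transcription. The study's methods describe RNA-seq of the day 7 cells, with 3 individuals in each group, of which 2 per group were analysed here, and do not describe the adult RNA-seq.

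Most imprinted genes lie in clusters, where a control region methylated on 1 parental chromosome sets which copy of each neighbour is active. Several act on growth, the paternally expressed ones often favouring it and the maternally expressed ones restraining it, as with IGF2 and the receptor IGF2R that removes it. Imprints are erased and set again in germ cells, and somatic cells of the testis carry the same parental marks as other tissues. Of the 36 members, 21 were listed as expressed from the paternal and 15 from the maternal copy. The values below are summed over both copies and do not show which copy was transcribed. The handling of strand was not stated, so reads of overlapping genes may not be separated.

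Promoter windows of 300 bases, reaching from 250 bases before to 50 bases after the gene start in RefSeq on GRCm38.p6, were found for 29 of the 36 members, with 40 windows in all. Peg3, a zinc finger gene, and Usp29, a ubiquitin-specific peptidase gene, are shown because they point away from each other out of a shared promoter and moved in opposite directions in the adult samples. The Peg3 window lies at chr7:6730370-6730669 on the minus strand and the Usp29 window at chr7:6730333-6730632 on the plus strand. The windows share 263 bases, and the starts they were built on lie 164 bases apart. Capitals mark CCAAT in either orientation, and the 2 matches in each window are the same 2 genomic positions. CCAAT was present in 40.0% of the 40 member windows and in 37.4% of all 32851 windows of this length.
Peg3: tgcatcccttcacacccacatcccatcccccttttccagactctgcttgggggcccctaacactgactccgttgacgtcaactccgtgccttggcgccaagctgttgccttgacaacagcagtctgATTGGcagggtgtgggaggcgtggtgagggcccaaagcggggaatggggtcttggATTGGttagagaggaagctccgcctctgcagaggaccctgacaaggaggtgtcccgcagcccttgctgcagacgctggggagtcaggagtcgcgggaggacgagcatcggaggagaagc
Usp29: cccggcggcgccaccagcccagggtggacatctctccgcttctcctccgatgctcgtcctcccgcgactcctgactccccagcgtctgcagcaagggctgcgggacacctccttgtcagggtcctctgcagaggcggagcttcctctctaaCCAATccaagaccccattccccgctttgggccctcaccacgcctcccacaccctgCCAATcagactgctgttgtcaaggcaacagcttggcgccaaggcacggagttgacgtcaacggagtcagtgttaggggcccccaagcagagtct

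The next windows are shown for a pair of members that rose in the adult samples labelled as knockout, Mest and Nnat, and a pair that fell, Asb4 and Rasgrf1. Where a gene has several windows, the one with most matches, or the first of equal ones, is printed. Capitals mark TGCCGC in either orientation, the core that the imprint-maintaining protein ZFP57 is known to bind when methylated. The Mest window, 1 of 3 for this gene, lies at chr6:30737800-30738099 on the plus strand and holds 2 matches and 17 CpG. The Nnat window at chr2:157559828-157560127 on the plus strand holds 1 match and 17 CpG. The Asb4 window, 1 of 2 for this gene, lies at chr6:5383136-5383435 on the plus strand and holds 0 matches and 6 CpG. The Rasgrf1 window at chr9:89909525-89909824 on the plus strand holds 0 matches and 26 CpG. These genes are examples and not all the members that rose or fell. Neither the Peg3 window printed above, of a member that rose, nor the Usp29 window, of one that fell, holds TGCCGC. Whether such matches differ between members that rose and members that fell was not tested. Over all members, 25.0% of the 40 windows held TGCCGC, against 11.6% of all 32851 windows, and the median CpG count was 10.5 against 7. GGGCGG, the GC box, was in 52.5% of member windows and 35.7% of all windows, in either orientation. A TGCCGC match can overlap a GGGCGG match on the other strand, some members have several nearly identical windows, and a match describes letters only.
Mest: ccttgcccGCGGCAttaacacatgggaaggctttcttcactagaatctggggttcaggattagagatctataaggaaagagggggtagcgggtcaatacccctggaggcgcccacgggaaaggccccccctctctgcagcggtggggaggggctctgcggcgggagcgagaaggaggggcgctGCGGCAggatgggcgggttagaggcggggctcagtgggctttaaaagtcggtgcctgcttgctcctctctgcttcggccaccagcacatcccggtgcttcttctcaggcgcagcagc
Nnat: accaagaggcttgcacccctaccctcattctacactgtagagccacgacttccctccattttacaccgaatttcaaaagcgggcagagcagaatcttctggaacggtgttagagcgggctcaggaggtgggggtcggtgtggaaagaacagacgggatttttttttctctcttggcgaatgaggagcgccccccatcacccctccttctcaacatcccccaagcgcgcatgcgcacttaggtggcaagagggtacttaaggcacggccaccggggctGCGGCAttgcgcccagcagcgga
Asb4: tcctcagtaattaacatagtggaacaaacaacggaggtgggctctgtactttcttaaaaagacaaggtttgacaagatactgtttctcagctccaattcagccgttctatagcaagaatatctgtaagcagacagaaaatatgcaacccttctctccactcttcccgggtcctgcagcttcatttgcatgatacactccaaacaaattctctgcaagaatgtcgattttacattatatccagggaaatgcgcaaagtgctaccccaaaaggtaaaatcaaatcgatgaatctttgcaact
Rasgrf1: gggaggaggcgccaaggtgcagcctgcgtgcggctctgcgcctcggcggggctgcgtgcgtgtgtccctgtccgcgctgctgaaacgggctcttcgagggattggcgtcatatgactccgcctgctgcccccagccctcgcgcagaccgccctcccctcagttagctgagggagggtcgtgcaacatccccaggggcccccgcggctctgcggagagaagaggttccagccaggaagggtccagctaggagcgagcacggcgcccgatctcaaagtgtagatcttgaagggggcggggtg

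Rnf20 was examined first, as a check of the labels. At day 7 its level was 16.6 and 16.0 FPKM (fragments per kilobase of gene, scaled to the size of the library) in the Rnf20 Flox/Flox samples and 10.3 and 12.6 FPKM in the Amh-Rnf20-/- samples, without overlap and without passing the test (edgeR log2 fold change -0.49 ± 0.12 SE, adjusted p = 0.222). In the adult testes it was 4.89, 3.32 and 4.09 FPKM in the controls and 9.16, 5.76 and 9.85 FPKM in the samples labelled as knockout. Rnf20 was therefore not called lower in the adult samples labelled as knockout (edgeR log2 fold change 0.12 ± 0.27 SE, adjusted p = 0.688). With total-count scaling it was called higher (0.97, adjusted p = 0.0168), and with median-ratio scaling the value was -0.075 (adjusted p = 0.804). The study describes the knockout as a disruption of the reading frame of the Rnf20 mRNA. The values given here are of the whole gene and do not tell a disrupted mRNA from an intact one. Rnf20 by itself thus does not check the adult labels, which give every adult direction below. The groups they name did not overlap in the summed spermatid, spermatocyte or spermatogonium markers. The spermatogonium list was mixed, with 3 of 13 tested genes called higher and 6 lower, beside 40.9% and 40.6% of all genes. Most of its control sums (929, 916 and 817 FPKM) came from Dmrtb1 (618, 638 and 508 FPKM). The day 7 samples expressed Sertoli cell markers, with the 17-gene list summing to 1963 and 1758 FPKM in the controls and 872 and 1413 FPKM in the Amh-Rnf20-/- samples. They also held genes of peritubular myoid cells (7 genes, 2078 and 1959 FPKM against 3613 and 3664 FPKM) and of stromal fibroblasts (7 genes, 2163 and 2247 FPKM against 3943 and 3320 FPKM). All 14 of those genes lay higher in both Amh-Rnf20-/- samples than in both controls, beside 19.7% of all genes tested. The Leydig cell list, with 7 genes in this table, summed to 156 and 161 FPKM in the controls and 302 and 214 FPKM in the knockouts, and the spermatogonium list of 16 genes to 230 and 224 FPKM against 159 and 159 FPKM. No gene of any of these lists passed edgeR's test at day 7. In the adult samples labelled as knockout the spermatid list of 12 genes summed to 16.5, 152 and 119 FPKM, against 170498, 195442 and 126711 FPKM in the controls, and Prm1, a protamine that defines spermatids, was at 0 in knockout sample 1. The Leydig cell list of 8 genes summed to 65460, 90283 and 72939 FPKM against 5318, 5656 and 4067 FPKM, the macrophage list of 8 genes to 2845, 2334 and 1794 FPKM against 70.2, 80.8 and 72.5 FPKM, and the stromal fibroblast list to 3401, 1334 and 1308 FPKM against 56.3, 43.2 and 51.8 FPKM. All 8 Leydig cell, all 8 macrophage and 6 of the 7 stromal genes were called higher, beside 40.9% of all genes. The peritubular myoid list summed to 419, 205 and 293 FPKM against 294, 367 and 304 FPKM, with overlap. Of its 7 genes, 5 were called higher and 1, Actg2, lower (log2 fold change -7.73). In such bulk samples, fewer cells of a type and less RNA per cell cannot be told apart, and the part of cell composition in the results below was not tested.

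Total counts were alike within each table, with 17477268 to 17705347 in the day 7 samples and 15431912 to 16574144 in the adult samples. Nothing in the labels says which samples came from separate animals, so p-values measure the spread between these samples. The knockout samples differed more among themselves than the controls did. At day 7 they differed by a chi-square per degree of freedom of 34.3 and the controls by 2.65, and knockout sample 1 lay farther from the controls (57.3 and 55.6) than sample 2 did (22.5 and 20.7). In the adults, knockout sample 1 differed from samples 2 and 3 by 88.1 and 118, and those from each other by 21.4.

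In the day 7 controls the imprinted genes covered a wide range of levels. Ndn, which encodes the MAGE family protein necdin, had the highest mean at 71.1 ± 2.57 FPKM (SD, n = 2), followed by Dlk1, a transmembrane protein with EGF repeats, at 49.4 ± 5.13 FPKM, Grb10, an adaptor that restrains insulin and IGF receptor signalling, at 42.7 ± 1.51 FPKM, and Sgce, epsilon-sarcoglycan, at 38.4 ± 0.467 FPKM. The control samples of Dlk1 (45.8 and 53.0 FPKM) and Grb10 (41.6 and 43.8 FPKM) did not overlap, nor did those of Grb10 and Sgce. In all, 10 of the 30 genes averaged 10 FPKM or more, 8 lay between 1 and 10 FPKM and 12 lay below 1 FPKM. In the adult controls only 3 reached 10 FPKM, the ubiquitin ligase gene Ube3a (13.8 ± 1.88 FPKM, SD, n = 3), the coatomer subunit gene Copg2 (12.7 ± 0.983 FPKM) and the SOCS box gene Asb4 (11.1 ± 1.66 FPKM), while 16 lay below 1 FPKM. In the adult samples labelled as knockout, 9 genes averaged 10 FPKM or more and 10 lay below 1 FPKM. The highest mean was again that of Ndn at 57.4 ± 21.5 FPKM (SD, n = 3), whose samples overlapped those of Sgce (51.6 ± 11.8 FPKM). The tables were normalised separately, so these levels were not tested between ages.

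At day 7, no imprinted gene passed the test, and neither did any other gene. Of the 30 genes, 25 reached the minimum of 0.5 FPKM in 2 samples, 3 of them (Dio3, Nap1l5 and Rtl1) through the Amh-Rnf20-/- samples alone. edgeR's quasi-likelihood test with Benjamini-Hochberg adjustment called 0 of these 25 at an adjusted p under 0.05, beside 0% of all 12880 genes tested. At an unadjusted p under 0.05 there were 9 of the 25 members, Dio3 and Rtl1 among them, beside 15.5% of all genes. Both Amh-Rnf20-/- samples lay above both controls in FPKM for 10 of the 25 and below them for 3, beside 19.7% and 31.1% of all genes. The 10 include Dio3, Nap1l5 and Rtl1. The median log2 fold change was 0.35 over the 25 members and -0.00 over all genes, and 0.29 over the 22 members left without those 3. Over the 25 it was 0.06 without knockout sample 1 and 0.55 without knockout sample 2.

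Dlk1 was the imprinted gene with the largest difference among those with high levels. It stood at 53.0 and 45.8 FPKM in the Rnf20 Flox/Flox samples and at 164.5 and 96.5 FPKM in the Amh-Rnf20-/- samples. The groups did not overlap, and sample 1 of the knockout was the higher. The log2 fold change was 1.41 ± 0.28 SE (adjusted p = 0.171 by edgeR). Dio3, the deiodinase that inactivates thyroid hormone and a neighbour of Dlk1 on chromosome 12, was low, at 0.36 FPKM in each control and at 0.90 and 1.25 FPKM in the knockout samples, from 10 counts in each control and 25 and 35 counts in the knockouts. Its log2 fold change was 1.61 ± 0.35 SE (adjusted p = 0.188). Rtl1, a retrotransposon-derived gene of the same cluster, was at 0.39 and 0.40 FPKM against 0.66 and 0.53 FPKM (0.62 ± 0.16 SE, adjusted p = 0.226). All 3 listed members of this cluster in the table lay higher in both Amh-Rnf20-/- samples than in both controls, and for none did the difference pass edgeR's test. Dio3 and Rtl1 had reached the minimum level through the knockout samples alone, and 19.7% of all genes lay higher in both knockout samples.

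Among other members, Grb10 was at 43.8 and 41.6 FPKM in the controls and at 85.5 and 55.9 FPKM in the Amh-Rnf20-/- samples, with a log2 fold change of 0.77 ± 0.23 SE (edgeR adjusted p = 0.260). Plagl1, a zinc finger transcription factor, was at 26.2 and 27.2 FPKM against 46.7 and 28.9 FPKM (0.53 ± 0.26 SE, adjusted p = 0.407). Cdkn1c, an inhibitor of cyclin-dependent kinases, was at 5.11 and 4.02 FPKM against 9.16 and 4.67 FPKM (0.64 ± 0.38 SE, adjusted p = 0.486). In each of these, knockout sample 1 lay farther above the controls than sample 2, and for Cdkn1c the groups overlapped. Peg3 was at 7.62 and 7.29 FPKM against 12.6 and 9.20 FPKM, without overlap (0.60 ± 0.17 SE, adjusted p = 0.253). Mest, a member of the hydrolase fold family, was at 6.31 and 6.65 FPKM against 12.2 and 6.55 FPKM (0.57 ± 0.32 SE, adjusted p = 0.464). Only sample 1 of the knockout exceeded both controls in FPKM, and sample 2 lay between them. Peg10, another retrotransposon-derived gene, was at 7.44 and 7.22 FPKM against 11.8 and 7.00 FPKM (0.40 ± 0.27 SE, adjusted p = 0.529). Its knockout sample 1 lay above both controls and sample 2 below both.

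Nnat, which encodes the small membrane protein neuronatin, was at 8.09 and 6.96 FPKM in the day 7 controls and at 10.5 and 10.1 FPKM in the Amh-Rnf20-/- samples (0.50 ± 0.17 SE, edgeR adjusted p = 0.300). Nap1l5, a nucleosome assembly protein family gene, was at 0.46 and 0.35 FPKM against 0.78 and 0.56 FPKM (0.76 ± 0.38 SE, adjusted p = 0.418), from at most 22 counts. Neither gene's groups overlapped. Ppp1r9a, which encodes the actin-binding protein neurabin, differed in the other direction, at 5.32 and 5.28 FPKM in the controls and 3.01 and 3.63 FPKM in the knockout samples. Its log2 fold change was -0.63 ± 0.12 SE (adjusted p = 0.168), the lowest of the 25, and Snrpn and Copg2 were the other members with both knockout samples below both controls. The remaining 13 tested members had log2 fold changes between -0.31 and 0.40. The 5 that did not reach the minimum level, Magel2, Slc22a3, Rasgrf1, Usp29 and Asb4, stood between 0 and 0.25 FPKM in every day 7 sample.

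**Figure D1:**
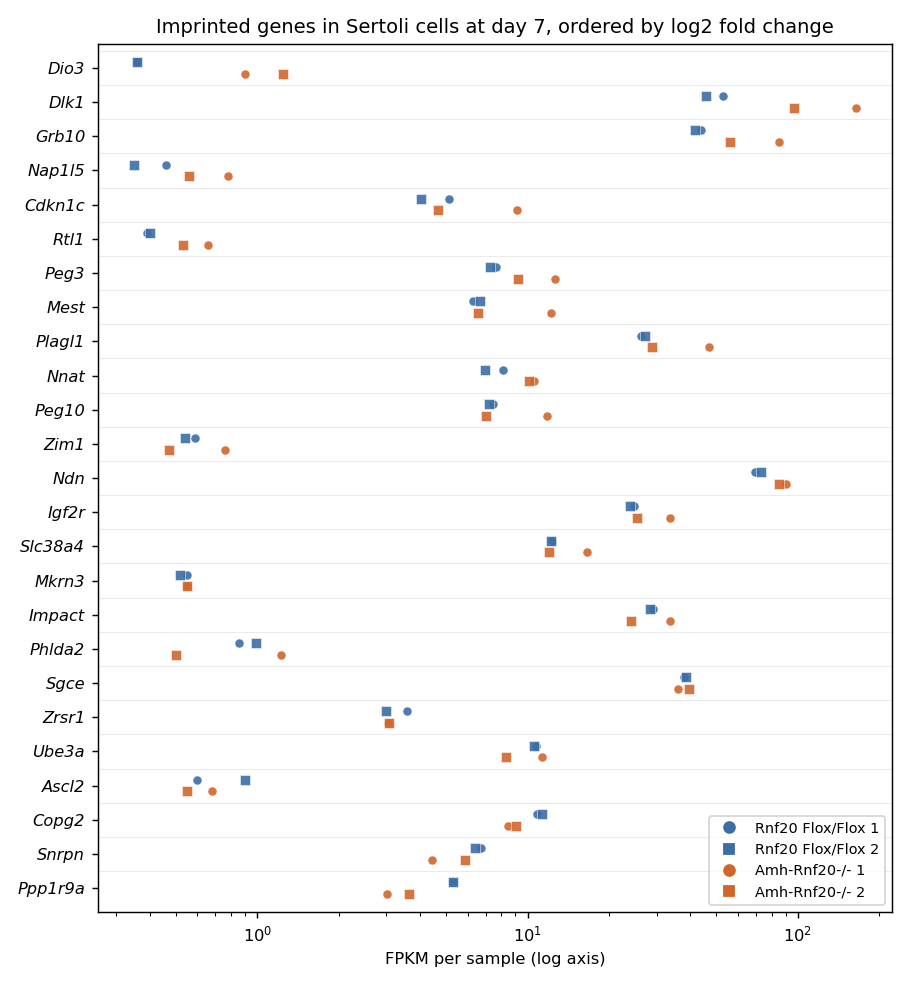
FPKM in each day 7 Sertoli cell sample (log axis) of the 25 imprinted genes tested, ordered by log2 fold change from Dio3 (1.61) down to Ppp1r9a (-0.63). Blue points are Rnf20 Flox/Flox and orange points Amh-Rnf20-/- samples, and circles of knockout sample 1 lie farther from the controls than squares of sample 2 for most genes.

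The number of calls at day 7 differed with the tool and with the Amh-Rnf20-/- sample used. DESeq2 called 3 members, Dlk1 (log2 fold change 1.41, adjusted p = 1.92e-05), Grb10 (0.77, adjusted p = 0.0244) and Ppp1r9a (-0.63, adjusted p = 0.0198), beside 4.50% of all genes, and limma called 0. With knockout sample 1 left out, edgeR called 9 members (6 higher, 3 lower) beside 21.4% of all genes, and with sample 2 left out it called 17 (14 higher, 3 lower) beside 39.9%. A lone knockout sample is then assumed to vary like the controls. Both fits use the same controls. Impact, a regulator of translation, was called lower without sample 1 (-0.24) and higher without sample 2 (0.30). For Dlk1 the log2 fold change was 0.98 without sample 1 and 1.74 without sample 2, and for Grb10 it was 0.41 and 1.05. Ppp1r9a was at -0.50 and -0.78, and Dio3 at 1.82 and 1.36.

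In the adult testes, 14 imprinted genes rose and 6 fell in the samples labelled as knockout, of the 25 that reached 0.5 FPKM in 3 samples. Dio3 and Nap1l5 reached it through the knockout samples alone, and Rasgrf1 and Usp29 through the controls alone, with no sample of the other group at 0.5 FPKM. Several others, such as Dlk1, Nnat, Peg3, Mest, Plagl1, Asb4 and Slc22a3, also had fewer than 3 samples at 0.5 FPKM in 1 group. The share of members called, 20 of 25, was near the background, since edgeR called 81.5% of all 15919 genes tested at an adjusted p under 0.05. Of all genes, 40.9% were called higher and 40.6% lower, beside 56.0% and 24.0% of the members. Dio3 and Nap1l5 count among the higher members here and in the next sentence, and Rasgrf1 and Usp29 among the lower. The groups did not overlap in FPKM, with the knockout samples above, for 19 of the 25, beside 54.9% of all genes, and with them below for 5, beside 32.4%. The median log2 fold change was 1.47 over the 25 members and 0.01 over all genes. It was also 1.47 over the 21 members left without Dio3, Nap1l5, Rasgrf1 and Usp29. Without the minimum level, 21 of 30 members were called, 16 higher and 5 lower, beside 70.5% of all genes, and the medians were 1.29 and -0.05. At the study's thresholds (a log2 fold change beyond 1 and an adjusted p under 0.001), 8 members were higher and 2 lower, beside 23.0% and 23.7% of all genes. With total-count scaling 17 members were called higher and 3 lower, and 64.3% of the calls over all genes were higher.

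Dlk1 and its neighbour Dio3 rose from low levels. Dlk1 was at 0.32, 0.51 and 0.32 FPKM in the adult controls and at 9.57, 13.7 and 7.98 FPKM in the samples labelled as knockout. Every knockout sample lay far above every control, with a log2 fold change of 3.91 ± 0.39 SE (edgeR adjusted p = 0.000200). Dio3 was at 0.07, 0 and 0.04 FPKM against 2.62, 0.77 and 0.64 FPKM (adjusted p = 0.00895), with a fitted log2 fold change of 4.21 and of 3.35 without knockout sample 1. The controls held only 3 counts in all, so its size was taken from the summed counts scaled by TMM (trimmed mean of M values), which gave a ratio of 19.6 with a 95% exact interval of 6.53 to 96.7 that covers counting error only. Rtl1 did not reach the minimum level, at 0.02, 0.02 and 0.03 FPKM against 0.33, 0.35 and 0.29 FPKM, although its long transcript gave 38 counts in the controls and 469 in the knockout samples. Fitted without the minimum, its log2 fold change was 2.85 (adjusted p = 0.000240). Begain, a neighbour of Dlk1 that is no member, fell (-1.96 ± 0.42 SE, adjusted p = 0.00494).

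Of the members that rose, Mest had the largest fitted log2 fold change, with a wide spread. It was at 0.62, 0.67 and 0.39 FPKM in the adult controls and at 3.30, 27.2 and 36.2 FPKM in the samples labelled as knockout. Knockout sample 1 was above every control but far below samples 2 and 3. The log2 fold change was 4.40 ± 0.90 SE (edgeR adjusted p = 0.00414), and 5.04 ± 0.22 SE without knockout sample 1. Nnat was arranged in the same way, at 0.49, 0.52 and 0.47 FPKM against 1.72, 10.6 and 6.14 FPKM (2.80 ± 0.69 SE, adjusted p = 0.00927, and 3.37 without knockout sample 1). Ndn, in contrast, was highest in knockout sample 1, with 1.99, 2.54 and 2.24 FPKM in the controls and 81.5, 40.0 and 50.8 FPKM in the knockout samples (3.82 ± 0.35 SE, adjusted p = 0.000147).

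Sgce and Impact rose with little spread. Sgce was at 4.29, 3.09 and 4.80 FPKM in the adult controls and at 65.2, 46.4 and 43.4 FPKM in the samples labelled as knockout (2.82 ± 0.26 SE, edgeR adjusted p = 0.000150). Impact was at 1.81, 1.79 and 1.67 FPKM against 24.1, 19.9 and 20.5 FPKM (2.71 ± 0.15 SE, adjusted p = 3.6e-05). Both genes had all knockout samples at several times the highest control. Nap1l5 was at 0.11, 0.07 and 0.07 FPKM against 1.65, 0.91 and 1.38 FPKM (adjusted p = 0.000859), a ratio of summed TMM-scaled counts of 8.32 with an interval of 3.90 to 21.2 from 7 counts in the controls. Zrsr1, a gene related to a splicing factor, was at 2.21, 2.44 and 2.5 FPKM against 12.8, 12.6 and 10.3 FPKM (1.47 ± 0.16 SE, adjusted p = 0.000311).

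Igf2r, Grb10, Plagl1, Peg3 and Ppp1r9a also rose, with log2 fold changes between 0.75 and 2.14. Igf2r, listed as maternally expressed, encodes the receptor that removes IGF2. It was at 0.73, 0.59 and 0.82 FPKM in the adult controls and at 3.96, 4.80 and 6.17 FPKM in the samples labelled as knockout (1.94 ± 0.19 SE, edgeR adjusted p = 0.000182). Grb10 was at 4.07, 3.31 and 3.89 FPKM against 20.1, 9.41 and 12.6 FPKM (1.04 ± 0.31 SE, adjusted p = 0.0198). Plagl1, listed as expressed from the paternal copy, was at 0.64, 0.48 and 0.63 FPKM against 4.32, 2.97 and 4.70 FPKM. Its log2 fold change was 1.92 ± 0.24 SE (edgeR adjusted p = 0.000506). In none of these did the groups overlap. Peg3 was at 0.65, 0.38 and 0.54 FPKM against 2.22, 3.99 and 6.72 FPKM (2.14 ± 0.40 SE, adjusted p = 0.00298). Ppp1r9a was at 2.73, 1.75 and 2.14 FPKM against 5.91, 6.22 and 9.57 FPKM (0.75 ± 0.22 SE, adjusted p = 0.0198), again without overlap. The adjusted p of Grb10 was between 0.0519 and 0.0688 without each control in turn, and that of Ppp1r9a was 0.0676 without control 2 and 0.0639 without control 3.

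**Figure D2:**
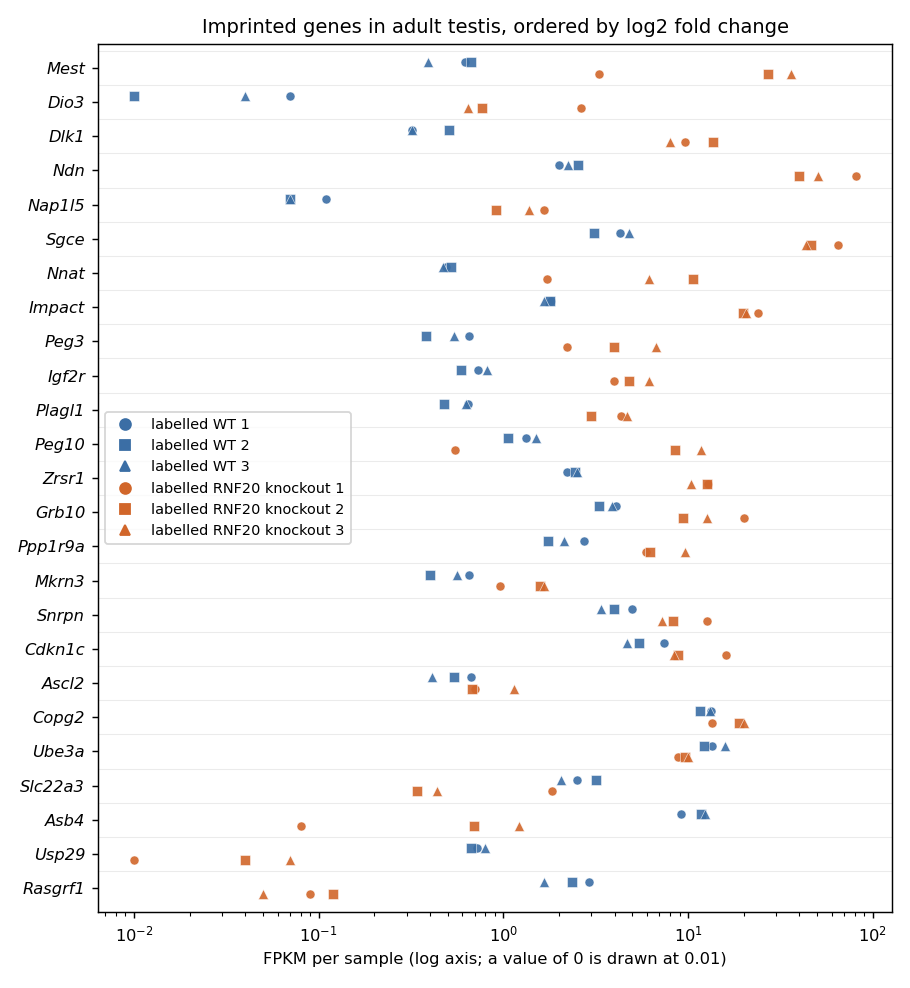
FPKM in each adult testis sample (log axis, with 0 drawn at 0.01) of the 25 imprinted genes tested, ordered by log2 fold change from Mest (4.40) down to Rasgrf1 (-5.55). Blue points are samples labelled WT and orange points samples labelled as the RNF20 conditional knockout, and the groups overlap in FPKM for Peg10 alone.

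The falls were fewer and, for 3 genes, steep. Rasgrf1, an exchange factor that activates Ras, was at 2.91, 2.36 and 1.65 FPKM in the adult controls and at 0.09, 0.12 and 0.05 FPKM in the samples labelled as knockout. The knockout samples held 16 counts together against 442 in the controls, and the log2 fold change was -5.55 ± 0.44 SE (edgeR adjusted p = 9.0e-05). Asb4 was at 9.20, 11.7 and 12.3 FPKM against 0.08, 0.69 and 1.22 FPKM (-4.96 ± 0.75 SE, adjusted p = 0.00107, and -4.32 without knockout sample 1). It was among the 3 highest members in the controls and was nearly gone from knockout sample 1. Usp29 was at 0.72, 0.67 and 0.80 FPKM against 0, 0.04 and 0.07 FPKM (-5.09 ± 0.74 SE, adjusted p = 0.000926, and -4.40 without knockout sample 1), with 0, 5 and 8 counts in the knockout samples. Slc22a3, an organic cation transporter, was at 2.49, 3.16 and 2.05 FPKM against 1.84, 0.34 and 0.44 FPKM, with sample 1 of the knockout near the controls (-2.38 ± 0.71 SE, adjusted p = 0.0201). Without that sample its log2 fold change was -3.48 ± 0.32 SE. Its edgeR adjusted p was 0.0650 without control 2 and 0.0503 without knockout sample 3. It was 0.0686 with libraries scaled by their total counts, 0.0524 by their upper quartiles and 0.176 by Sertoli cell markers.

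Ube3a and Copg2 were called lower by small amounts, and their direction depended on the scaling. Ube3a was at 13.5, 12.2 and 15.9 FPKM in the adult controls and at 8.81, 9.61 and 10.01 FPKM in the samples labelled as knockout (-0.61 ± 0.13 SE, edgeR adjusted p = 0.00417). Its estimated counts, 1089, 995 and 1287 against 1227, 1350 and 1278, overlapped before scaling, and the log2 fold change was 0.24 when libraries were scaled by their total counts. The length that its counts and FPKM together imply was 4.87, 4.99 and 4.99 kb in the controls and 8.75, 8.67 and 8.27 kb in the knockout samples, so the authors' values assign longer transcripts of Ube3a to the latter. At day 7 that length was 7.95 and 7.74 kb in the controls and 7.58 and 7.41 kb in the knockouts. Copg2 was at 13.4, 11.6 and 13.2 FPKM against 13.4, 18.8 and 20.0 FPKM, higher in FPKM and lower after TMM scaling (-0.41 ± 0.15 SE, adjusted p = 0.0386). Its log2 fold change was 0.45 with total-count scaling and 0.16 with upper-quartile scaling, and its adjusted p was between 0.0568 and 0.201 without each sample in turn. These scalings moved the median of all adult genes to 0.87 and 0.58. The share of higher calls among all adult calls was 50.1% with TMM and 64.3% with total counts.

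The 5 tested members that did not pass in the adults were Peg10, Mkrn3, Snrpn, Cdkn1c and Ascl2. Peg10 was at 1.33, 1.06 and 1.51 FPKM in the controls and at 0.55, 8.45 and 11.8 FPKM in the samples labelled as knockout. Knockout sample 1 lay below every control and the others above, and the log2 fold change was 1.53 ± 0.91 SE (edgeR adjusted p = 0.164) with it and 2.20 ± 0.17 SE (adjusted p = 3.02e-06) without it. The other 4 had log2 fold changes between -0.22 and 0.52. Mkrn3, which encodes a ring finger protein, was higher without knockout sample 1 (0.83 ± 0.31 SE, adjusted p = 0.0302). Mkrn3, the cell cycle inhibitor Cdkn1c and the splicing protein gene Snrpn each had all knockout samples above all controls in FPKM. With total-count scaling all 3 passed as higher, at 1.37 (adjusted p = 0.0105), 0.90 (adjusted p = 0.0385) and 1.15 (adjusted p = 0.00871). Below the minimum level were Magel2, Zim1, Phlda2, Slc38a4 and Rtl1, with at most 0.94 FPKM in any adult sample. Of these, Zim1, a zinc finger gene next to Peg3, held 3 counts in the controls and 46 in the knockout samples, a ratio of 8.76 with an interval of 2.82 to 44.0 (adjusted p = 0.0296 without the minimum level).

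Neighbours within a cluster did not always move alike. Peg3 rose and Usp29 fell, although their starts share the promoter printed above. Sgce and Peg10, whose RefSeq ends lie 102 bases apart on chromosome 6, are also transcribed away from each other, and Sgce rose in all 3 adult knockout samples while Peg10 was above the controls in samples 2 and 3 only. On the same chromosome Ppp1r9a rose and Asb4 fell, both listed as maternally expressed. Mest and Copg2 overlap by 913 bases at their ends on opposite strands, and Mest rose while the sign of the small Copg2 difference depended on the scaling. Igf2r rose and Slc22a3 fell on chromosome 17. On chromosome 7, Ndn rose, Mkrn3 and Snrpn did not pass, and Ube3a was called lower with the dependence on scaling given above. At day 7 edgeR called none of these genes, DESeq2 called Ppp1r9a lower (-0.63, adjusted p = 0.0198), and Asb4, Usp29 and Slc22a3 were near 0 there. Several members overlap a gene on the opposite strand, such as Nnat with Blcap, Zrsr1 with Commd1 and Nap1l5 with Herc3, and their counts are uncertain to that extent.

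**Figure D3:**
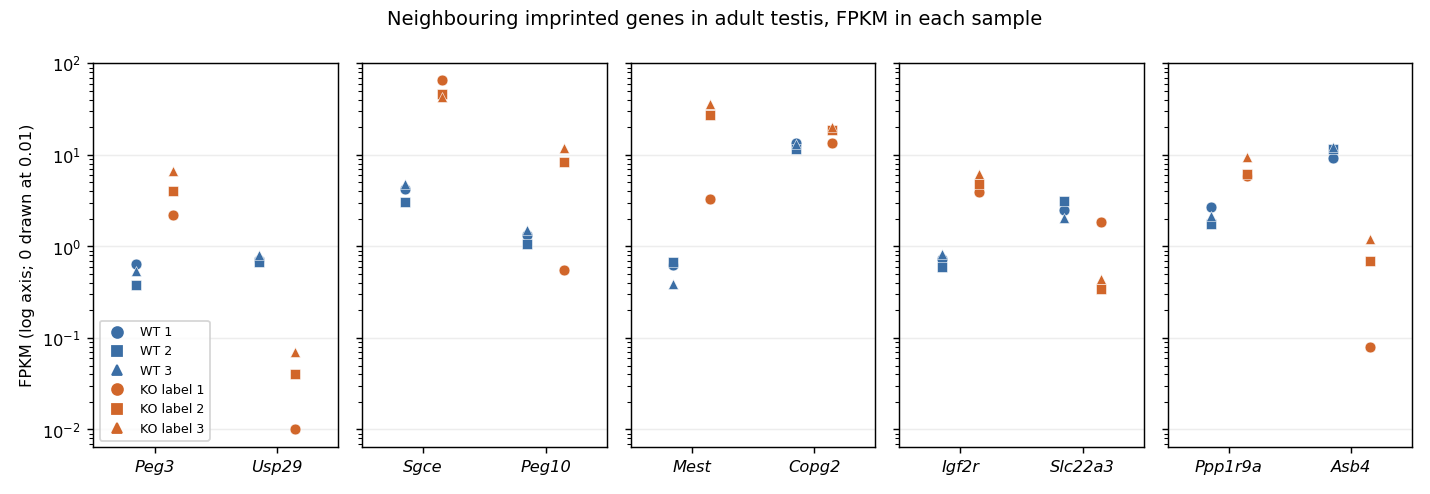
FPKM in each adult sample (log axis, with 0 drawn at 0.01) of 5 pairs of neighbouring imprinted genes, controls in blue and samples labelled as knockout in orange. In the first panel Peg3 reaches 2.22 to 6.72 FPKM in the knockout samples while Usp29 lies at 0.07 FPKM or less.

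Knockout sample 1 of the adults differed from samples 2 and 3 in several members. It had 3.30 FPKM of Mest, 0.55 FPKM of Peg10, 1.72 FPKM of Nnat and 0.08 FPKM of Asb4, each the lowest of the knockout samples, and 1.84 FPKM of Slc22a3, 2.62 FPKM of Dio3 and 81.5 FPKM of Ndn, each the highest. In the same sample the spermatocyte list of 12 genes summed to 5.52 FPKM, against 127 and 205 FPKM in knockout samples 2 and 3 and 896 to 943 FPKM in the controls. The spermatogonium list of 16 genes summed to 62.1 FPKM against 353 and 494 FPKM. The Sertoli cell list of 17 genes summed to 5208 FPKM against 9554 and 10296 FPKM, and to 2754, 2254 and 1782 FPKM in the controls. For 9 of the 17 the groups overlapped, and Inha was highest in knockout sample 1 (766 against 245 and 368 FPKM). The stromal fibroblast list of 7 genes was highest in knockout sample 1, at 3401 FPKM against 1334 and 1308 FPKM. Which of these moved with the imprinted genes was not tested. Without this sample, 16 members were called higher and 5 lower, beside 86.4% of all genes called in either direction.

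**Figure D4:**
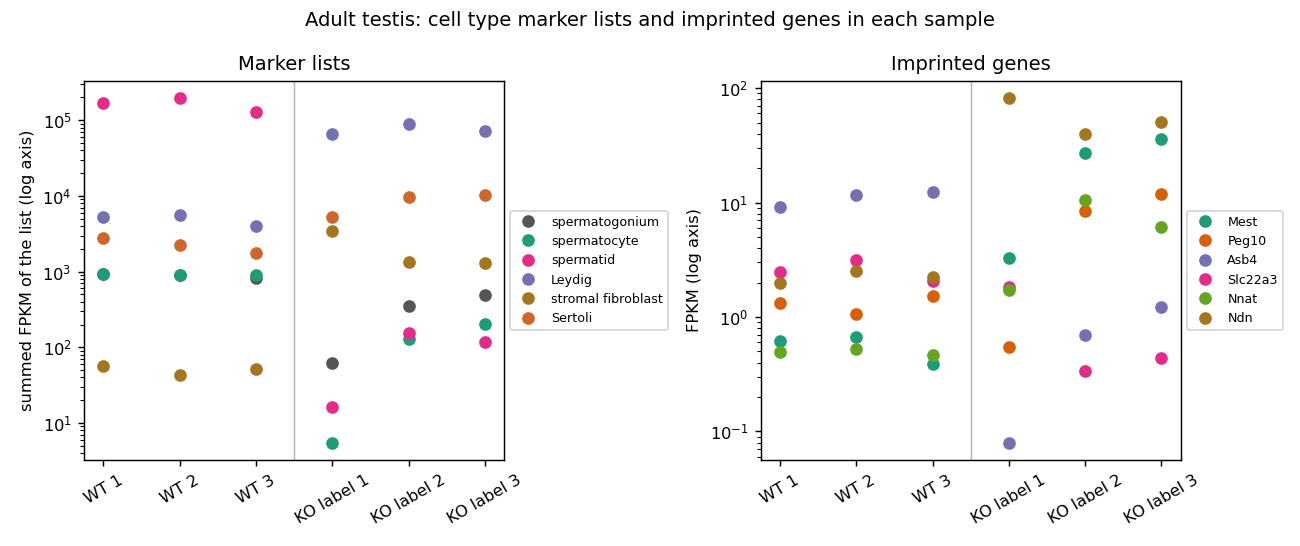
Summed FPKM of cell type marker lists (left) and FPKM of 6 imprinted genes (right) in each adult sample, both on log axes, with controls left of the grey line. Knockout sample 1 has the lowest spermatocyte sum (5.52 FPKM) and, among the knockout samples, the lowest Mest, Peg10, Nnat and Asb4.

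The members were grouped by the parental copy listed for them, and which copy was transcribed in these samples was not measured. Of the 16 paternally expressed members tested in the adults, 11 were called higher and 2 lower (Usp29 and Rasgrf1). Their median log2 fold change was 2.42. Without Dio3, Nap1l5, Usp29 and Rasgrf1, which reached the minimum level through 1 group alone, 9 of 12 were called higher and 0 lower by edgeR, with the same median. The 9 still include Dlk1, Nnat, Peg3, Mest and Plagl1, whose controls alone were short of 3 samples at 0.5 FPKM. Of the 9 maternally expressed members tested, 3 were called higher (Igf2r, Grb10 and Ppp1r9a) and 4 lower (Asb4, Slc22a3, Ube3a and Copg2), with a median of -0.22. The sign of that median and the lower calls of Slc22a3, Ube3a and Copg2 depended on the scaling. With total-count scaling Ube3a was at 0.24, Copg2 at 0.45 and Ascl2 at 0.64, and Slc22a3 did not pass (edgeR adjusted p = 0.0686). Of all adult genes, 40.9% were called higher and 40.6% lower, and 81.5% in either direction. The 13 calls among 16 paternally and the 7 among 9 maternally expressed members both lie near that share. At day 7 the medians were 0.45 over 16 paternally and 0.04 over 9 maternally expressed members, with no call by edgeR in either. Over both lists together the day 7 median was 0.06 without knockout sample 1 and 0.55 without knockout sample 2. How far the median of each list rests on sample 1 was not tested. Without Dio3, Nap1l5 and Rtl1, all on the paternal list and past the minimum level through the knockout samples alone, the paternal median was 0.35 over 13 members. The difference between the lists was not tested. The members were also set side by side across ages. Of the 21 tested in both tables, 15 (71.4%) had a positive and 3 (14.3%) a negative log2 fold change in both, beside 30.5% and 24.2% of the 12378 genes tested in both. The 3 negative in both, Ube3a, Ascl2 and Copg2, were positive in the adults with total-count scaling. Without Dio3 and Nap1l5, which reached the minimum level through the knockout samples alone, 13 of 19 were positive in both. The remaining 3, Snrpn, Ppp1r9a and Zrsr1, were negative at day 7 and positive in the adults. Dlk1 was among the 3 highest log2 fold changes at both ages (1.41 at day 7 and 3.91 in the adults), while Sgce and Impact, with 0.01 and 0.06 at day 7, were among the clear adult rises.

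**Figure D5:**
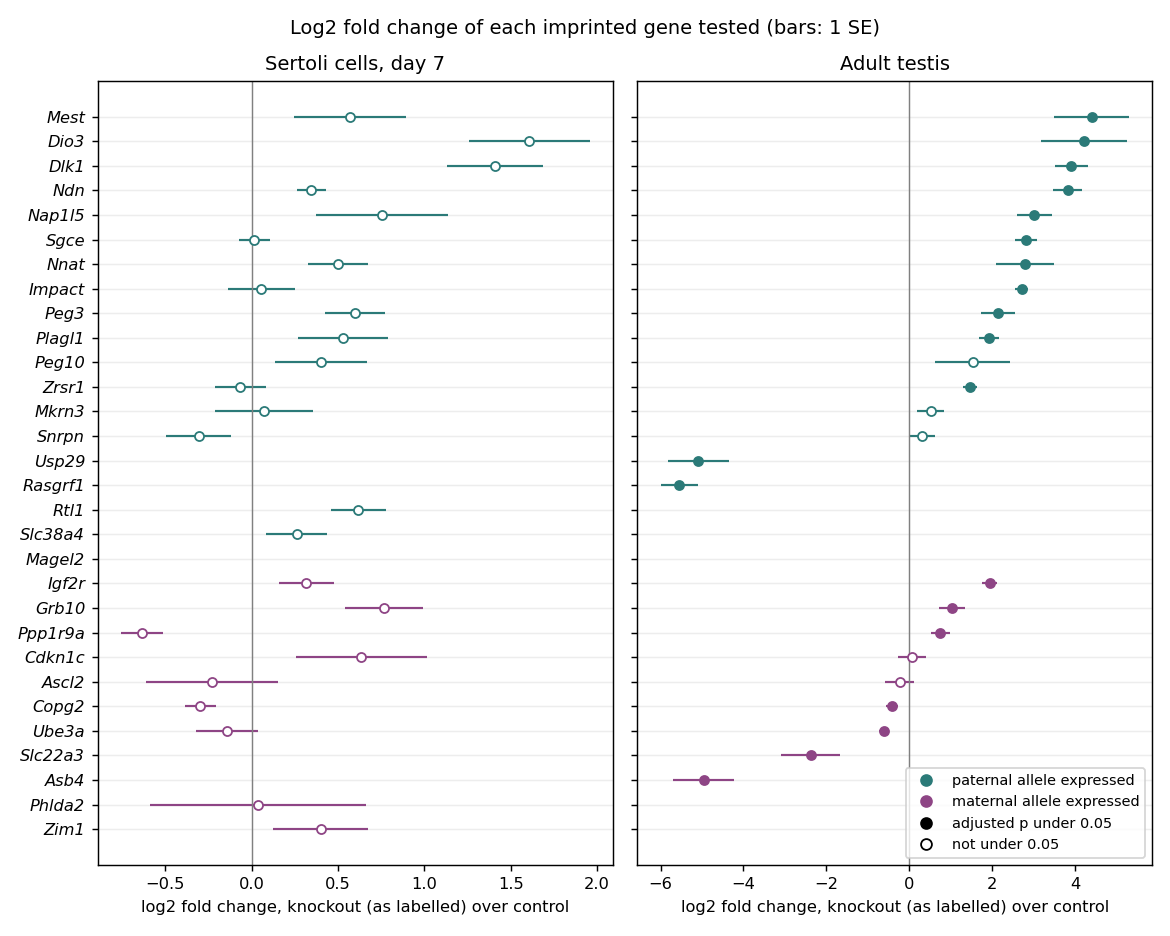
Log2 fold change of each imprinted gene tested at day 7 (left) and in the adults (right, on a wider axis), with bars of 1 SE, filled where the adjusted p is under 0.05. The upper block holds genes listed as paternally expressed (green) and the lower block genes listed as maternally expressed (purple). No gene is filled at day 7 (edgeR).

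Other genes of the imprinted clusters and the regulators of imprints were measured in the same fits. At day 7, 0 of 21 tested cluster genes and 0 of 19 tested regulators passed edgeR's test (6 and 5 at an unadjusted p under 0.05, beside 15.5% of all genes), with median log2 fold changes of 0.11 and -0.05. Igf2, the growth factor bound by IGF2R, was at 10.7 and 9.20 FPKM against 16.9 and 13.2 FPKM, without overlap (0.66 ± 0.20 SE, adjusted p = 0.270). In the adults, 13 of 22 cluster genes were called higher and 7 lower, with a median of 1.05, beside 81.5% of all genes called in either direction. The largest rises were Igf2, from 1.28, 1.56 and 1.51 FPKM to 81.2, 75.0 and 54.4 FPKM (4.62 ± 0.24 SE, adjusted p = 3.18e-05), and Pon3, a paraoxonase gene next to Asb4 and Ppp1r9a (3.33 ± 0.20 SE, adjusted p = 4.21e-05). Gnas, which encodes a stimulatory G protein subunit, rose by 2.57 ± 0.19 SE. The largest falls were Sfmbt2 (-3.84 ± 0.69 SE, adjusted p = 0.00230) and Atp10a (-2.57 ± 0.27 SE, adjusted p = 0.000229).

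Of the 18 regulators tested in the adults, 6 were called higher and 7 lower, with a median of 0.17, beside 81.5% of all genes called in either direction. Zfp57, whose product binds the methylated copy of imprinted control regions, was at 22.4, 22.0 and 20.7 FPKM in the controls and at 0.39, 1.61 and 1.07 FPKM in the samples labelled as knockout (-5.22 ± 0.47 SE, edgeR adjusted p = 0.000129). Dnmt3l, a cofactor for setting methylation in germ cells, fell by 3.74 ± 0.52 SE, Uhrf1, needed for copying methylation, by 3.20 ± 0.59 SE, and Trim28, the partner of ZFP57, by 1.67 ± 0.15 SE. Dnmt1, the maintenance methyltransferase, was called lower after TMM scaling (-0.60 ± 0.17 SE, adjusted p = 0.0154), but not with total-count scaling (0.26, adjusted p = 0.241), and its FPKM overlapped between groups, with a mean of 5.61 FPKM in the controls and 7.02 FPKM in the knockout samples. Tet2 and Tet3, which oxidise methylcytosine, rose by 3.82 ± 0.36 SE and 2.85 ± 0.34 SE, and Dnmt3a, which sets methylation, rose by 1.15 ± 0.16 SE. These changes stood beside the spermatid, spermatocyte and Leydig cell sums given above, and their relation to them was not tested.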

How the data were processed

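RNA-seq values of 4 Sertoli cell samples at day 7 and 6 adult testis samples were analysed. Oligo(dT)-enriched mRNA was sequenced. HISAT (genome, GRCm38.p6), Bowtie2 (reference gene sequences) and RSEM (quantification) were used by the authors. Tool versions and strand handling were not given in the sources used here. Deposited per sample were RSEM's estimated counts, without normalisation, and FPKM, adjusted for transcript length and sequencing depth. A deposited TPM column was left aside. The adult table has 20 further columns without values, which were not used.

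The members and all gene lists were chosen with earlier results of these data known. Every member may be named. Those called, and the 12 with the largest absolute fold change at day 7, are given in every sample. Rounded estimated counts were tested by edgeR's quasi-likelihood test with TMM scaling in each table alone, with Benjamini-Hochberg adjustment over all genes tested. Genes with at least 0.5 FPKM in 2 (day 7) or 3 (adult) samples were tested, and calls had an adjusted p under 0.05. Standard errors were obtained from each gene's fold change and F statistic. Overlap of groups was judged on FPKM. Implied lengths were counts divided by FPKM and the total count. Intervals of count ratios are exact and at 95%. Scripts were tested on simulated counts. Alternatives covered the filter, the scaling (total counts, median ratio, upper quartile, Sertoli cell markers), DESeq2, limma on log2(FPKM + 0.1) and log2(FPKM + 1), the replicate number as a block, the study's thresholds and each sample left out. Sequences and positions came from RefSeq on GRCm38.p6 and overlaps from GENCODE on GRCm38. Tools were edgeR 4.0.16, DESeq2 1.42.0, limma 3.58.1, R 4.3.3, Python 3.11.15, pandas 2.3.3, numpy 2.4.6, scipy 1.17.1 and matplotlib 3.10.9.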

Additional observations from a re-analysis of the deposited data

Results flagged for a closer look

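For 3 imprinted genes, all knockout samples lay on one side of the controls at day 7 and on the other side in the adults, judged on TMM-scaled counts. Ppp1r9a had a log2 fold change of -0.63 at day 7 and 0.75 in the adults, where only the latter passed edgeR's test. Asb4 had 0.63 at day 7, from at most 14 counts per sample and fitted without the minimum level, and -4.96 in the adults. Usp29 had 0.34 at day 7, from at most 8 counts per sample and fitted in the same way, and -5.09 in the adults. The difference between the ages was not tested for any of them, since the tables were normalised separately and hold different material, cultured cells and whole testis. Groups of 2 and 3 samples are too small for the search for outlying samples.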

How the results depend on the processing

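In each other fit of the adult table that tested them, at an adjusted p under 0.05, 14 of the 20 called members kept their call and direction, 11 of them in 16 fits and Dio3, Nap1l5 and Usp29 in 15, since the minimum mean of 1 FPKM left those 3 out (Asb4, Dio3, Dlk1, Igf2r, Impact, Mest, Nap1l5, Ndn, Nnat, Peg3, Plagl1, Rasgrf1, Sgce and Usp29). Grb10, Ppp1r9a, Zrsr1, Slc22a3, Ube3a and Copg2 lost the call or changed sign in at least 1 of them. Of the 14, Dio3 and Nap1l5 reached the minimum level through the knockout samples alone, Rasgrf1 and Usp29 through the controls alone. How many of all called genes kept their call in every fit was not counted, so the 14 have no background share beside them. The number of adult members called lower, 6, was 3 with total-count scaling, 3 with upper-quartile scaling, 3 when scaled to Sertoli cell markers and 2 at the study's thresholds. The number called higher, 14, was 8 at the study's thresholds. All adult genes called, 12969, came to 8340 when scaled to Sertoli cell markers and 7432 at the study's thresholds. Leaving out each sample in turn gave 12 to 16 members called higher, 4 to 5 lower and 12018 to 13757 adult genes called. At day 7, where 0 genes were called, 26 were called when scaled to Sertoli cell markers and 579 with DESeq2, which called 3 members. Leaving out each day 7 sample gave 0 to 5136 genes and 0 to 17 members, with the calls arising when a knockout sample was left out. The cause was not tested.

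The signs of some members changed. Scaling to Sertoli cell markers moved the median of all day 7 genes to 1.02 and gave 0.78 for Ascl2, 0.63 for Snrpn, 0.97 for Zrsr1, 0.995 for Ube3a, 0.71 for Copg2 and 0.33 for Ppp1r9a. Day 7 values with total-count scaling were -0.024 for Sgce and -0.00076 for Phlda2. With limma on log2(FPKM + 0.1) and on log2(FPKM + 1) they were -0.0085 and -0.0077 for Impact, -0.025 and -0.025 for Sgce, and -0.20 and -0.073 for Phlda2. Without each day 7 sample in turn, log2 fold changes ran from -0.49 to 0.083 for Ascl2, -0.24 to 0.30 for Impact, -0.031 to 0.73 for Peg10, -0.86 to 0.59 for Phlda2, -0.053 to 0.079 for Sgce, -0.41 to 0.080 for Ube3a and -0.19 to 0.076 for Zrsr1. In the adults, total-count scaling gave 0.45 for Copg2, 0.24 for Ube3a and 0.64 for Ascl2, upper-quartile scaling gave 0.16 for Copg2 and 0.34 for Ascl2, and limma gave 0.43 and 0.41 for Copg2 and 0.54 and 0.25 for Ascl2 with the smaller and larger pseudocount. Cdkn1c was at -0.12 with median-ratio scaling, at -0.12 with DESeq2 and between -0.22 and 0.32 without each sample in turn. Median-ratio scaling moved the median of all adult genes to -0.19 and scaling to Sertoli cell markers to 0.21.

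Samples of the 2 groups with the same replicate number did not deviate together (correlations of 0.0316 at day 7 and 0.00758, 0.00623 and 0.0273 in the adults), so the numbers were not taken as pairs. With the replicate number as a block, 0 day 7 genes and 12209 adult genes were called, with 14 members higher and 5 lower, and Phlda2 at day 7 was at -0.015. Values under 3 counts per sample, such as Dio3 in the adult controls, are limited by depth.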
